A study of Homo sapiens with 40 samples.

Results

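The mRNAs described here encode 7 proteins of the KMT2 and SETD1 lysine methyltransferase family, KMT2A, KMT2B, KMT2C, KMT2D, KMT2E, SETD1A and SETD1B, found by their symbols among 55765 counted symbols. They were chosen as very long mRNAs of the H3K4 methyltransferase family and selected on the polysomal against subpolysomal fold change of KMT2D, known to be one of the highest in control cells. The level of KMT2D in polysomal against subpolysomal RNA of control cells is therefore given as a description, with no test, and the other members are treated in the same way for that contrast.

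Proteins of this family place methyl groups on lysine 4 of histone H3 (H3K4), a mark found at active promoters and enhancers. They work within COMPASS complexes, in which a catalytic subunit is held by the shared core proteins WDR5, RBBP5, ASH2L and DPY30. SETD1A and SETD1B provide most H3K4 trimethylation at promoters, KMT2A (MLL) and KMT2B act at developmental genes and CpG-rich promoters, and KMT2C and KMT2D provide monomethylation at enhancers. KMT2E (MLL5) carries a SET domain but is thought to lack methyltransferase activity, and it reads H3K4 methylation through its PHD finger.

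All RNA came from HEK293, a human embryonic kidney cell line, as 40 strand-specific poly(A)-selected libraries in 12 groups. In the RNA immunoprecipitation experiment (RIP), cells without siRNA gave total RNA and RNA recovered in a short immunoprecipitation (IP) with antibodies to the endogenous DEAD-box helicases eIF4A1, eIF4A2 or DDX6, with 3 libraries per group. No IgG library was analysed here, so RNA held by beads alone cannot be told apart from bound RNA. For the gradients, cells were transfected with a control siRNA or one that depletes CNOT1, on which the subunits of the Ccr4-Not deadenylase assemble, and were lysed in cycloheximide. Input RNA, pooled subpolysomal RNA (fractions 1 to 5 of a sucrose gradient) and pooled polysomal RNA (fractions 6 to 11) gave 4 libraries per group and siRNA. In the third experiment, total RNA came from cells with control siRNA or depleted of the miRNA silencing factors TNRC6A and TNRC6B by siRNA, with 2 libraries per group. The labels do not say that replicates were separate cultures, so p-values measure only the spread between these samples. For 1 RIP total RNA library the title says replicate 3 and the description replicate 2. The title was used, and results that pair RIP replicates rest on that number.

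Libraries held 15353317 to 46018900 counts, of which the members together took 0.0275 to 0.176%. Every member had at least 397 counts in every library and passed the filter on low counts in each comparison. Of the genes listed as HEK293 markers, LIN28B, NEFL, NEFM and VIM were present in each library, while PAX2 reached only 0.0984 to 1.57 CPM (counts scaled to library size). The 5 markers of blood, liver, pancreas and heart stayed at or below 0.4 CPM. CNOT1 itself was 628 to 711 CPM in control input and 36.8 to 41.4 CPM in CNOT1 siRNA input. Polysomal replicate 3 went against its labels in both groups, with 28.3 CPM of CNOT1 in the library labelled control siRNA and 631 CPM in the library labelled CNOT1 siRNA. Results that use polysomal RNA keep these 2 libraries unless stated, and for part of them values without both are given as well. The eIF4A2 IP replicate 3 stood apart from its group for SETD1A, with 96.7 CPM against 271 and 324.

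The 7 mRNAs differ widely in length (GRCh37, GENCODE 44, MANE Select transcripts). KMT2D, on the minus strand of chromosome 12 from 49412758 to 49454577, has an mRNA of 20635 nt with a coding sequence of 16614 nt, the 17th longest of 18379 coding symbols. KMT2C (chromosome 7, 151832007 to 152133729, minus strand) has 14736 nt of coding sequence and KMT2A (chromosome 11, 118307171 to 118397547, plus strand) has 11919 nt. KMT2B (chromosome 19, 36208875 to 36229781, plus strand) follows with 8148 nt. The shortest are SETD1B (chromosome 12, 122241915 to 122270562, plus strand) with 5901 nt, KMT2E (chromosome 7, 104581390 to 104755466, plus strand) with 5577 nt and SETD1A (chromosome 16, 30968615 to 30995985, plus strand) with 5124 nt, against a median of 1284 nt over all coding symbols. The coding sequences also split by base composition. KMT2B, KMT2D, SETD1A and SETD1B have 60.1 to 64.7% GC, and KMT2A, KMT2C and KMT2E have 43.6 to 48.1%.

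Their leaders differ as well. KMT2D has a 5′UTR of 1219 nt, longer than that of 99.5% of coding symbols, while those of KMT2A and KMT2B are only 21 and 16 nt long. Because the study concerned purine-rich RNA near the end of the 5′UTR, the mRNA strand was searched for 8 purine tetramers (AAGA or AGAA or GAAA or GAGA or AGAG or GGAA or AAAA or GAAG, some of which overlap each other and were counted without overlap). The 30 bases before the start codon are shown for the 2 members called lower in the eIF4A1 IP and the 2 called higher in the eIF4A2 IP, 5′ to 3′ with tetramers in capitals.
KMT2C (GRCh37 chr7:152132872-152132901, minus strand): gggatccatgtgtctttcctggtgactagg
KMT2D (GRCh37 chr12:49449108-49449137, minus strand): cGAGAGggccctgcccagtcgGAGAGAGgg
KMT2E (GRCh37 chr7:104681370-104681399, plus strand): tagtaatcgaatttaccAGAGgcgaacgtc
SETD1B (GRCh37 chr12:122242124-122242643, plus strand, with an intron inside): ggcgcccggcggggatgttgggttaacggc
KMT2D held 3 tetramers in the last 50 nt of its 5′UTR and KMT2E held 1. Of 14841 coding symbols with a 5′UTR of at least that length, 13.4% held 3 or more and 62.3% at least 1. KMT2C, SETD1A and SETD1B held none there, and the leaders of KMT2A and KMT2B are shorter than 50 nt. A match is a description of the letters and not a binding site.

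Relative to transcript length, SETD1A was the most abundant member in control input, with 24.6 ± 2.39 CPM per kb of mRNA (SD, n = 4). KMT2A and KMT2D each stood at 15.4 CPM per kb (SD 0.601 and 1.86), KMT2C at 12.6 ± 0.25, KMT2E at 9.64 ± 0.237 and SETD1B at 8.69 ± 0.766. KMT2B was lowest on this scale, at 6.36 ± 0.82 CPM per kb. Below, levels are CPM on totals adjusted by the trimmed mean of M values (TMM) and are compared only within a gene and an experiment. CPM is a share of a library, so in these bulk samples fewer cells with an mRNA and less of it per cell cannot be told apart.

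**Figure D1:**
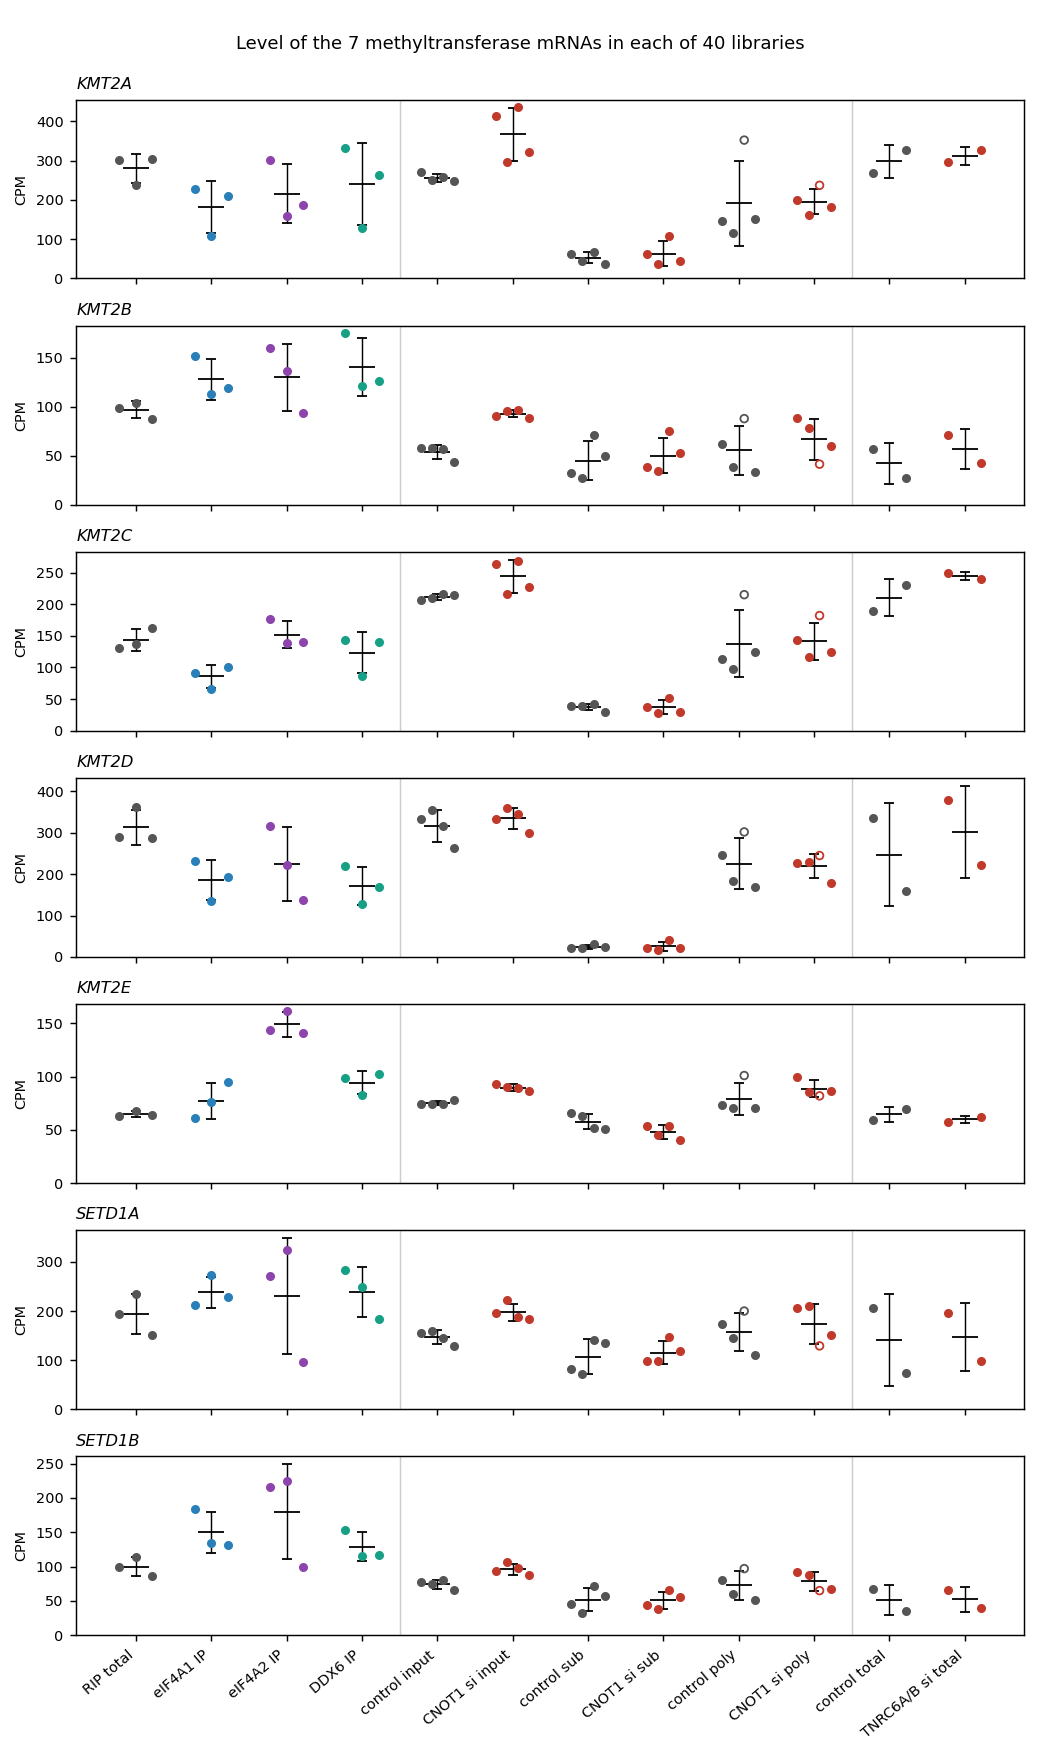
Level of each member (CPM, linear axes from 0) in all 40 libraries by group, with the mean and SD as black bars. Vertical lines separate the 3 experiments. Open circles are the polysomal libraries of replicate 3. KMT2D lies at 17.6 to 40.2 CPM in the 8 subpolysomal libraries and at 128 CPM or more in every other library.

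The RIP comparisons asked which mRNAs each helicase carries. KMT2E was recovered best with eIF4A2. Its level was 62.8, 67.7 and 64.3 CPM in total RNA and 144, 162 and 141 CPM in the eIF4A2 IP, and no library of one group reached the other. The log2 fold change was 1.20 (SE 0.16, edgeR FDR 4.65e-05), at percentile 91.9 of all genes. For 28.5% of genes, every eIF4A2 IP library lay above every total RNA library. SETD1B was the other member called higher, with 99.8, 114 and 86.7 CPM in total RNA against 216, 224 and 100 CPM in the eIF4A2 IP (log2 0.84, SE 0.26, FDR 0.0149). Its lowest IP library, replicate 3, lay inside the range of total RNA. Of 17474 genes, 24.5% were called higher in this IP, so 2 of 7 members is near the background, and no member was called lower, against 25.8% of genes.

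The remaining members showed no call in the eIF4A2 IP. KMT2B and SETD1A had positive values (log2 0.42 and 0.25), and KMT2A and KMT2D negative ones (-0.37 and -0.47). KMT2C was at 177, 138 and 141 CPM in the IP against 131, 137 and 163 CPM in total RNA, a log2 fold change of 0.08 (SE 0.21). Without eIF4A2 IP replicate 3, KMT2B (0.61, FDR 0.0177) and SETD1A (0.62, FDR 0.0301) were called higher too, for 4 members. The SETD1B call was lost without RIP total replicate 3 (FDR 0.06) and without eIF4A2 IP replicate 1 or 2 (FDR 0.062 and 0.0699), and without IP replicate 1 KMT2D was called lower (-0.79, FDR 0.0382). With the replicate block, 4 members were called: KMT2E, SETD1B and KMT2B (0.39, FDR 0.0219) higher, against 30.4% of genes, and KMT2A lower (-0.43, FDR 0.0493), against 31.9%.

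In the eIF4A1 IP the 2 members with the longest coding sequences fell. KMT2D was 231, 136 and 192 CPM there against 290, 362 and 288 CPM in total RNA (log2 -0.75, SE 0.28, FDR 0.0394), and KMT2C was 91.9, 65.9 and 101 CPM against 131, 137 and 163 CPM (log2 -0.73, SE 0.21, FDR 0.0102). Neither overlapped total RNA. KMT2A was also below every total RNA library, with 228, 107 and 210 CPM against 301, 238 and 303 CPM, but its spread between replicates was wide (log2 -0.62, SE 0.35, FDR 0.144). SETD1B (0.58), KMT2B (0.40), SETD1A (0.30) and KMT2E (0.25) had positive log2 values that were not called. Of these, SETD1B and KMT2B lay above every total RNA library. The share of all genes without overlap was not computed for this or the later IP contrasts. It was 28.5% in the higher direction for the eIF4A2 IP, so separation of libraries in these contrasts is not read as a result about the members. Lower calls covered 26.5% of all genes and higher calls 26.1%. Of 91 other genes with at least 10000 nt of coding sequence 49.5% were called lower, and their median log2 fold change was -0.64, close to the values of KMT2C and KMT2D. With the replicate block, 5 members were called, KMT2A (-0.70, FDR 0.00351), KMT2C and KMT2D lower and KMT2B (0.39, FDR 0.0216) and SETD1B (0.57, FDR 0.0167) higher, against 32.0% of genes called lower and 32.4% higher.

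The KMT2D call in the eIF4A1 IP was lost without RIP total replicates 1, 2 or 3 (FDR 0.0611, 0.125 and 0.0587) and without eIF4A1 IP replicates 2 or 3 (FDR 0.14 and 0.0719), its log2 fold change staying between -0.93 and -0.57. Scaled by library totals alone, which moved the median log2 fold change of all genes from 0.04 to 0.29, the split turned to 3 members higher (KMT2B, KMT2E and SETD1B) and 0 lower, with KMT2C and KMT2D both at -0.48 (FDR 0.101 and 0.176). Without eIF4A1 IP replicate 1, KMT2E was called higher (0.40, FDR 0.0438).

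In the DDX6 IP, KMT2E rose to 98.7, 82.4 and 102 CPM, above all 3 total RNA libraries (log2 0.54, SE 0.16, FDR 0.0135). KMT2B rose from 99, 104 and 87.1 CPM to 175, 121 and 126 CPM (log2 0.54, SE 0.20, FDR 0.0443). KMT2D fell to 220, 128 and 169 CPM, again below every total RNA library (log2 -0.86, SE 0.28, FDR 0.024). The background was 22.7% of genes called higher and 23.3% lower, and 41.8% of the 91 other genes with at least 10000 nt of coding sequence were lower. KMT2A, KMT2C, SETD1A and SETD1B were not called, with log2 values of -0.22, -0.21, 0.30 and 0.36. SETD1B and KMT2B also lay above every total RNA library. The KMT2B call was lost without any 1 of the RIP total replicates (FDR 0.0657 to 0.135) or DDX6 IP replicate 1 (FDR 0.196). KMT2D was not called without RIP total replicate 2 (FDR 0.0836) or DDX6 IP replicates 2 or 3 (FDR 0.0995 and 0.0597), nor with library totals alone (-0.70, FDR 0.0633), which moved the median of all genes from 0.01 to 0.16 and left 2 higher and 0 lower. The 3 IPs were divided by the same total RNA libraries, so these comparisons are not independent of each other.

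**Figure D2:**
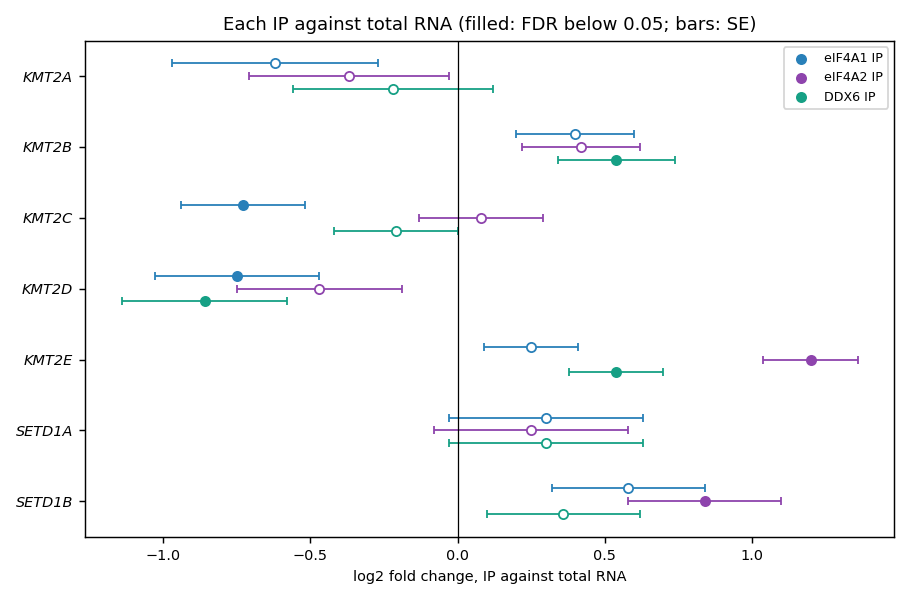
log2 fold change of each member in the 3 IPs against total RNA, with the SE as bars (n = 3 per group) and filled points at an FDR below 0.05. KMT2E in the eIF4A2 IP has the highest value, 1.20, and KMT2D in the DDX6 IP the lowest, -0.86.

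In direct comparisons between IPs KMT2E was the member called. It was higher in the eIF4A2 IP than in the eIF4A1 IP, where it stood at 60.8, 76.3 and 94.7 CPM, by 0.95 on the log2 scale (SE 0.16, FDR 0.0125), when 0.973% of genes were called higher and 0.0858% lower. Of 605 other genes with a coding sequence of at least 5000 nt, 13 had a higher value in this contrast and the median was 0.27. KMT2C was next, with every eIF4A2 IP library above every eIF4A1 IP library (log2 0.82, SE 0.21, FDR 0.0886). Among 91 other genes with at least 10000 nt of coding sequence the median was 0.47, and 5 of them lay above KMT2C. With the replicate block KMT2C was called as well (0.84, FDR 0.00467), against 7.12% of genes higher, as it was by DESeq2 (0.83, FDR 0.0101). The KMT2E call was lost without eIF4A1 IP replicate 2 (0.94, FDR 0.0587) and in a fit of only the compared libraries (FDR 0.104).

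KMT2E was also higher in the eIF4A2 IP than in the DDX6 IP (log2 0.66, SE 0.16, FDR 0.0128), against 9.82% of genes called higher and 11.3% lower. The call was lost without DDX6 IP replicate 2 (0.57, FDR 0.0644), and without eIF4A2 IP replicate 3 SETD1B was called too (0.77, FDR 0.021), making 2 members. Between the DDX6 and eIF4A1 IPs edgeR called no member and DESeq2 none, with 1 member (KMT2C) at an unadjusted p under 0.05 in each, and 0.0801% of all genes were called higher and 0.0114% lower. The replicate block called 1 member there, KMT2C (0.51, FDR 0.0451), against 6.08% of genes higher. KMT2C thus ran 86.3 ± 18.3 CPM with eIF4A1, 124 ± 32.1 with DDX6 and 152 ± 21.8 with eIF4A2 (SD, n = 3), and neighbouring groups in the order eIF4A1, DDX6, total RNA and eIF4A2 overlapped.

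For comparison, 28 other genes of H3K4 and lysine methylation were listed. With eIF4A1 as the bait 2 were called higher and 11 lower, beside 26.1 and 26.5% of all genes. With eIF4A2 these were 3 and 8, beside 24.5 and 25.8%, and with DDX6 they were 3 and 9, beside 22.7 and 23.3%. The COMPASS core subunit ASH2L had 47.4 ± 3.14 CPM in total RNA and fell to 19 ± 0.847 CPM with eIF4A1 (log2 -1.32, FDR 2.44e-06) and by as much with eIF4A2 (-1.32). It fell with DDX6 as well, to 26.1 ± 1.41 CPM (-0.86, FDR 8.41e-05). PSIP1, the chromatin tether of the KMT2A and KMT2B complexes, fell in all 3 IPs (-1.42, -1.30 and -1.13), and so did KDM1A, an H3K4 demethylase (-1.20, -1.37 and -0.97). WDR5, the core subunit that binds the KMT2 and SETD1 proteins directly, went the other way and rose in all 3 IPs (0.97, 0.94 and 0.89), in the DDX6 IP from 186 ± 30.1 to 344 ± 32.3 CPM (FDR 0.000952). Larger changes than that of WDR5 were the falls of KDM5A with eIF4A1 (-1.01) and of SMYD3 (-1.14) and KDM1B (-1.05) with eIF4A2. NSD1, an H3K36 methyltransferase with a long mRNA, was higher with eIF4A2 than with DDX6 (447 ± 30.4 against 263 ± 41.1 CPM, log2 0.76, FDR 0.0064). More listed genes went the other way in that contrast, with 2 called higher and 4 lower, beside 9.82 and 11.3% of all genes. The core subunit DPY30 changed most and was lower with eIF4A2 (-0.80, FDR 0.0157). SMYD3 (-0.66, FDR 0.013) and KDM1B (-0.51, FDR 0.0156) were lower too. EZH2, the H3K27 methyltransferase of Polycomb complex PRC2, was called by edgeR between the eIF4A2 and eIF4A1 IPs (0.61, FDR 0.0248), where 1 of the 28 listed genes was called by edgeR, 2 by DESeq2 and 9 with the replicate block.

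The gradients asked how these mRNAs divide between free and polysomal RNA. In control cells KMT2D was 21.5, 22.4, 32.2 and 24 CPM in subpolysomal RNA and 247, 183, 302 and 169 CPM in polysomal RNA, the third of the latter being the library that went against its label. The log2 fold change of 3.08 placed it 6th of 15500 genes, and without that library it was 2.96. KMT2C (1.79) and KMT2A (1.75) followed, each with all polysomal libraries above all subpolysomal ones. KMT2E (0.37) was separated by less, with 65.4, 62.9, 52 and 50.9 CPM in subpolysomal and 73.5, 70.2, 101 and 70.7 CPM in polysomal RNA. SETD1A (0.46), SETD1B (0.39) and KMT2B (0.20) overlapped between the fractions. All polysomal libraries lay above all subpolysomal ones for 4 of 7 members and for 29.3% of genes. By size alone, 3 of 7 members were over 2-fold higher in polysomal RNA, as were 15.6% of all genes.

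In CNOT1 siRNA cells this contrast was tested. KMT2D was chosen for the same trait in control cells, so its values here are not independent support for that trait. The labels of polysomal replicate 3 are also in doubt, so these libraries cannot be said to lie wholly outside that choice. As a description, KMT2D rose from 21.2, 17.6, 40.2 and 22.1 CPM in subpolysomal RNA to 228, 230, 245 and 179 CPM in polysomal RNA. This 8.40-fold difference (log2 3.07, SE 0.23) was the highest of 15654 genes. KMT2C rose from 37.7, 28.5, 52.2 and 28.9 CPM to 143, 117, 182 and 124 CPM (log2 1.88, SE 0.20, FDR 3.55e-06). KMT2A rose from 62.6, 37.4, 108 and 45.5 CPM to 199, 162, 237 and 183 CPM (log2 1.56, SE 0.26, FDR 0.000154). No subpolysomal library of these 3 mRNAs reached a polysomal one. KMT2E went from 53.4, 45.2, 54 and 40.6 CPM to 100, 85.3, 81.9 and 86.7 CPM, also without overlap (log2 0.81, SE 0.13, FDR 0.000102).

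SETD1B (log2 0.56, FDR 0.0121) and SETD1A (0.54, FDR 0.0149) were called higher in polysomal RNA with overlapping libraries, and KMT2B was not called (0.35, SE 0.25, FDR 0.226). In all, 6 of 7 members were called higher, against 32.4% of genes (34.0% were lower), and 4 of 7 had no overlap, against 30.1%. All counts of members in this contrast include KMT2D. Its FDR passed too, but it was chosen for this trait, so it adds no support to them. Without polysomal replicate 3, which went against its label, all 7 were called (KMT2B 0.55, FDR 0.0371), against 34.5% of genes. Of 566 other genes with a coding sequence of at least 5000 nt, 58.7% were called higher, and their median log2 fold change was 0.63, beside 0.81 for the members and -0.02 for all genes. Among 82 other genes with at least 10000 nt the median was 1.08, and 0, 10 and 20 of them lay above KMT2D, KMT2C and KMT2A. The SETD1A and SETD1B calls were lost without polysomal replicate 1 (FDR 0.0683 and 0.0637) or 2 (0.0719 and 0.0537), and with library totals alone (0.29 and 0.31, FDR 0.209 and 0.191), which moved the median of all genes from -0.02 to -0.26 and left 4 members called. KMT2B was called without CNOT1 siRNA subpolysomal replicate 3 (0.60, FDR 0.0416) as well.

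Gradients of the same number gave a ratio each, as log2 of polysomal over subpolysomal CPM with a pseudocount of 0.5 CPM. Deviations of same-numbered subpolysomal and polysomal libraries gave r -0.45 to 0.19 with control and -0.23 to -0.12 with CNOT1 siRNA. The ratios therefore rest on the replicate numbers of the labels, and these values do not show that the fractions pair. KMT2D ran from 2.79 to 3.49 over the 4 control gradients and from 2.59 to 3.68 over the 4 CNOT1 siRNA gradients, at or above the 99.8th percentile of genes in all 8. KMT2C ran from 1.32 to 2.36 and from 1.79 to 2.08. Without replicate 3 the mean control ratio fell for KMT2A (1.73 to 1.52), KMT2C (1.80 to 1.62), KMT2E (0.44 to 0.26) and KMT2D (3.12 to 3.09). It stayed at 0.30 for KMT2B and rose for SETD1A (0.58 to 0.61) and SETD1B (0.49 to 0.52). With CNOT1 siRNA the mean rose for every member, for KMT2A from 1.72 to 1.92. KMT2B was far less even, with ratios of 0.92, 0.51, 0.30 and -0.55 in control gradients 1 to 4 and 1.17, 1.19, -0.85 and 0.17 with CNOT1 siRNA. SETD1A showed the same split, with 1.08, 1.02, 0.50 and -0.27 in control gradients. Its subpolysomal level was 82 and 71.7 CPM in control replicates 1 and 2 but 141 and 134 CPM in replicates 3 and 4. KMT2B likewise had 32.1 and 26.7 CPM against 71.2 and 49.5 CPM in the same libraries. The part of this spread between gradients in the calls for KMT2B and SETD1A was not tested.

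**Figure D3:**
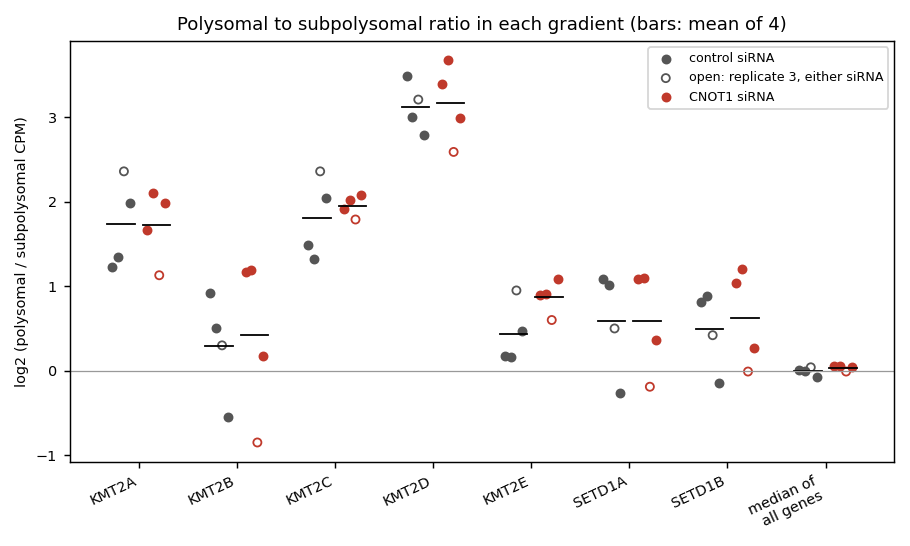
log2 ratio of polysomal to subpolysomal CPM in each gradient, in gray for control and red for CNOT1 siRNA, with the mean of 4 as a bar and replicate 3 as open circles. The rightmost column is the median of all genes. KMT2D lies above 2.5 in all 8 gradients, and KMT2A and KMT2C lie above 1.

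Both fractions held less KMT2A, KMT2C and KMT2D than the input RNA did. In control cells, leaving out polysomal replicate 3, KMT2D stood at 7.9% of its input level in subpolysomal and 63% in polysomal RNA. KMT2C stood at 17.7 and 52.7%, and KMT2A at 20.8 and 53.8%. The shorter members were closer to input, from 69.9 to 83.2% in subpolysomal and 82.5 to 97.6% in polysomal RNA. All 7 members were below input in both fractions, as were 20.7% of genes. With every library kept, 4 of 7 members and 17.3% of genes were, KMT2B, KMT2E and SETD1A then standing at 103, 105 and 107% of input in polysomal RNA. In CNOT1 siRNA cells the values were similar for the long members (KMT2D 7.54 and 63.4%, KMT2C 15.1 and 52.4%, KMT2A 17.3 and 49.4%), 6 of 7 members and 19.7% of genes being below input in both fractions, and with every library 7 of 7 and 21.0%. Levels are shares of each library, and why both fractions were low was not tested.

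**Figure D4:**
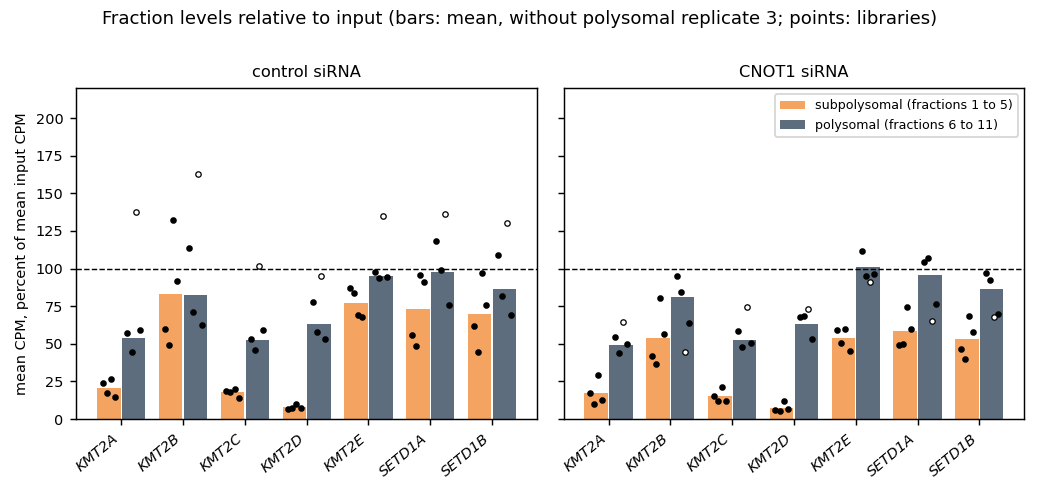
Mean CPM of each member in the 2 pooled fractions as percent of its mean input CPM, for control siRNA (left) and CNOT1 siRNA (right). Bars leave out polysomal replicate 3, points are libraries, and that replicate is an open circle. The dashed line is the input level. KMT2D reaches 7.9 and 7.54% of input in subpolysomal RNA.

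Partner genes were described in the same contrast. In CNOT1 siRNA cells 18 of the 28 listed genes were called higher and 3 lower in polysomal RNA, beside 32.4 and 34.0% of all genes and 58.7 and 7.24% of other genes with at least 5000 nt of coding sequence. Their median log2 fold change was 0.60, and without polysomal replicate 3 these counts and this median were the same. PSIP1 (1.65, FDR 2.29e-06) rose most, from 57.8 ± 11.4 to 189 ± 34.3 CPM, followed by the H3K4 demethylases KDM5B (1.5, FDR 1.08e-06) and KDM5A (1.37, FDR 2.74e-06), and all 5 H3K4 demethylases were called higher. SMYD3, another lysine methyltransferase, rose from 6.82 ± 1.05 to 16.6 ± 1.43 CPM (1.22, FDR 2.64e-05). The 14 COMPASS partner subunits had 9 called higher and 2 lower.

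CNOT1 siRNA was compared with control siRNA in each kind of RNA. In input RNA 6 of 7 members rose, against 30.9% of genes called higher. KMT2B changed most, from 57.8, 57.3, 57.1 and 43.5 CPM to 90.8, 95.2, 96.8 and 88.9 CPM (log2 0.80, SE 0.08, FDR 3.36e-07). KMT2A rose from 270, 250, 257 and 248 CPM to 414, 297, 435 and 322 CPM (log2 0.53, SE 0.10, FDR 0.000205). SETD1A rose from 155, 160, 145 and 128 CPM to 196, 222, 188 and 184 CPM (log2 0.44, SE 0.07, FDR 5.8e-05). SETD1B rose by 0.38 (SE 0.07, FDR 0.000186) and KMT2E by 0.27 (SE 0.05, FDR 0.000211). In each of these 5 the libraries of the siRNA groups did not overlap, as was the case, with higher levels after CNOT1 siRNA, for 26.2% of genes.

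KMT2C rose least of the called members, from 207, 209, 216 and 215 CPM to 264, 216, 269 and 227 CPM (log2 0.22, SE 0.07, FDR 0.0109), and its lowest CNOT1 siRNA library and highest control library both read 216 CPM. KMT2D, at 333, 354, 316 and 264 CPM against 334, 361, 345 and 300 CPM, was not called (0.10, SE 0.08, FDR 0.29). Of 581 other genes with at least 5000 nt of coding sequence, 40.8% were called higher in input, with a median of 0.12, beside 0.38 for the members. The KMT2C call was lost without CNOT1 siRNA input replicate 1 or 3 (FDR 0.0514 and 0.0516). In the fit of all 24 gradient libraries, which includes the polysomal libraries of replicate 3, only KMT2B was called, with nearly the same log2 fold changes (KMT2A 0.52, FDR 0.168).

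KMT2D was chosen on its control subpolysomal and polysomal levels, so in these fractions its values are given without a test. In subpolysomal RNA edgeR called 0 of the other 6 members, with 0 at an unadjusted p under 0.05 and 0 by DESeq2, against 12.6% of genes called higher and 15.2% lower. Log2 fold changes lay between -0.23 (KMT2E, SE 0.13) and 0.28 (KMT2A, SE 0.31), and KMT2D stood at 0.04. KMT2E was 65.4, 62.9, 52 and 50.9 CPM with control siRNA and 53.4, 45.2, 54 and 40.6 CPM with CNOT1 siRNA. With the replicate block 2 members were called, KMT2E lower (-0.23, SE 0.08, FDR 0.0146) and KMT2B higher (0.22, SE 0.08, FDR 0.0175), against 27.0% of genes higher and 31.2% lower.

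In polysomal RNA 0 of the 6 members and no gene were called by edgeR or DESeq2 with all 8 libraries, with an unadjusted edgeR p under 0.05 for 0 members and for 38 genes higher and 61 lower. Without both libraries of replicate 3 the comparison changed: KMT2B (0.75, SE 0.22, FDR 0.0201), KMT2A (0.39, SE 0.12, FDR 0.0264) and KMT2E (0.34, SE 0.09, FDR 0.0119) were called higher, against 21.8% of genes. KMT2E was then 73.5, 70.2 and 70.7 CPM with control and 100, 85.3 and 86.7 CPM with CNOT1 siRNA. KMT2B was 61.4, 38.3 and 33.7 CPM against 88.1, 78.2 and 59.5 CPM, with some overlap. SETD1A (0.39, FDR 0.0864), SETD1B (0.35, FDR 0.12) and KMT2C (0.19, FDR 0.198) were not called, and KMT2D stood at 0.08 (SE 0.15). Adding the replicate block to that fit called all 6 tested members, against 31.2% of genes. This combination was chosen after seeing the data. It also assumes that polysomal replicate numbers pair, which the deviations of these libraries (r -0.56 to 0.10) could not decide.

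**Figure D5:**
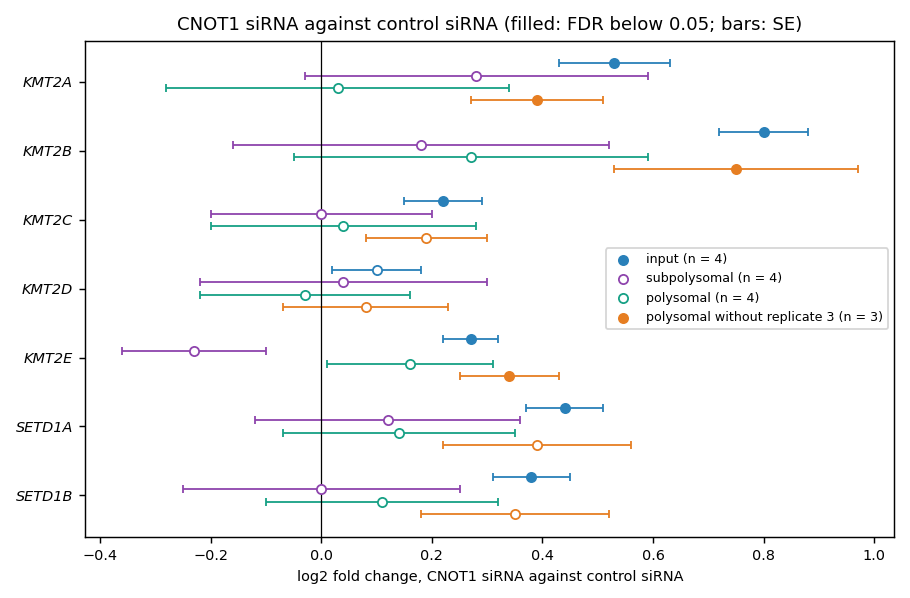
log2 fold change of each member for CNOT1 against control siRNA in input, subpolysomal and polysomal RNA, the last with 4 and with 3 libraries per group. Bars are the SE and filled points have an FDR below 0.05. In input RNA all members except KMT2D, at 0.10, are filled. For the fractions KMT2D is plotted without a test, since it was chosen on their control libraries.

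Whether CNOT1 siRNA shifted members between fractions was tested as the effect in polysomal minus that in subpolysomal RNA. edgeR and DESeq2 each called 0 members over all 16 libraries, with 0 at an unadjusted p under 0.05, and 0.576% of genes were called higher and 0.376% lower. KMT2E had the highest value, 0.43 (SE 0.21, FDR 0.336), and KMT2A the lowest, -0.22 (SE 0.46). Without both polysomal libraries of replicate 3, KMT2E was called higher (0.61, SE 0.18, FDR 0.0414), and with the replicate block added it was as well (0.60, FDR 0.0138), against 5.47 and 9.85% of genes. Adding the block there was chosen after seeing the data and assumes a pairing of polysomal numbers that could not be decided. Its ratio was 0.17, 0.16 and 0.47 in control gradients 1, 2 and 4 and 0.90, 0.91 and 1.09 in the same CNOT1 siRNA gradients. KMT2D, for which the control libraries of this contrast were used in choosing it, is given without a test at -0.04 (SE 0.32). No other member was called in either fit.

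Among the 28 listed genes, 14 rose and 4 fell in input RNA after CNOT1 siRNA, beside 4848 and 4713 of all 15686 genes. SETD7, an H3K4 monomethyltransferase outside COMPASS, fell most, from 283 ± 12.3 to 123 ± 6.27 CPM (log2 -1.19, FDR 2.19e-09). KDM5B rose from 99.3 ± 2.1 to 158 ± 19 CPM (0.68, FDR 8.76e-07), and the KMT2C and KMT2D complex subunits NCOA6 (0.62, FDR 6.8e-07) and KDM6A, an H3K27 demethylase (0.48, FDR 8.97e-06), rose too. In subpolysomal RNA 6 rose and 1 fell, beside 12.6 and 15.2% of all genes, among them DPY30 (0.69, FDR 0.0149), PAXIP1 (0.56, FDR 0.00483) and SETD7 (-0.53, FDR 0.00418). In polysomal RNA edgeR and DESeq2 called 0 with all libraries, and 0 had an unadjusted p under 0.05, whereas without both libraries of replicate 3 edgeR called 10 higher and 3 lower, beside 21.8 and 18.9% of all genes, SETD7 (-1.27, FDR 2.76e-05) and KDM5B (0.90, FDR 0.00024) first. In that fit of the shift between fractions, KDM5B (1.07, FDR 0.00471) and KDM6A (0.90, FDR 0.00383) were higher and DPY30 (-0.81, FDR 0.026) and SETD7 (-0.70, FDR 0.00791) lower.

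With TNRC6A and TNRC6B siRNAs, 0 of 7 members were called, by edgeR or DESeq2, and 0 had an unadjusted p under 0.05. No gene was called by edgeR, 8 were by DESeq2 and an unadjusted edgeR p under 0.05 was found for 173 genes higher and 116 lower, and the targets TNRC6A (178 and 189 against 40.5 and 64.7 CPM, log2 -1.80) and TNRC6B (-1.68) themselves were not called. KMT2B (log2 0.43, SE 0.46) had the highest value and KMT2E (-0.11, SE 0.22) the lowest. Replicates differed more than groups did. SETD1A was 207 and 74 CPM in control and 197 and 98.6 CPM with TNRC6A/B siRNA, and KMT2D was 335 and 159 against 380 and 223 CPM. KMT2C was the only member without overlap, at 190 and 231 against 249 and 240 CPM (0.21, SE 0.19). With 2 libraries per group, the share of all genes without overlap was not computed. With the replicate block, which calls 3.70% of genes higher, no member was called.

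Across the 12 group means, centred within each experiment, KMT2A, KMT2C and KMT2D had the most similar profiles, with Pearson r from 0.97 to 0.98 for each pair. This describes 12 points that share libraries across all genes, uses every library as labelled, and carries no test. Of 9693 genes with a mean of at least 10 CPM, those most like KMT2D were MED14 (0.995), MIB1 (0.994) and NOTCH2 (0.994). SEC16A (0.997), ANAPC1 (0.989) and KIAA1109 (0.989) were most like KMT2C, and AKAP13 (0.992), ANAPC1 (0.989) and USP24 (0.989) most like KMT2A. For KMT2B the nearest were ARHGEF10 (0.965), JARID2 (0.948) and TECPR2 (0.939), with SETD1A at 0.88. KMT2E was nearest to BACH2 (0.923), ZFAND5 (0.922) and SPATA13 (0.907), and SETD1B (0.85) was the member most like it. ANKS1A (0.972), BRD3 (0.963) and AGGF1 (0.958) were most like SETD1A, and UBN1 (0.977), RGS12 (0.975) and CAMSAP1 (0.966) most like SETD1B.

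Some counts could hold reads of neighbours. KMT2B shares 80 exonic bases with IGFLR1 on the opposite strand, KMT2C 238 with FABP5P3, and KMT2E 158 with KMT2E-AS1 and 369 with SRPK2. The strand setting of the counting was not stated, so reads of these stretches cannot be told apart. On the same strand, KMT2A shares 5755 exonic bases, KMT2D 661 and KMT2E 78 and 99 with annotated protein-coding genes that are not among the counted symbols. Strand cannot separate reads of those stretches. KMT2E-AS1 itself had 4 to 88 counts per library. KMT2C also has near-identical partial copies in the BAGE family, of which the counted symbol BAGE2 had 0 to 2 counts.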

How the data were processed

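HEK293 RNA-Seq counts were used from 40 libraries in 12 groups, as the labels give them. The authors aligned reads to hg19 with TopHat2 and deposited 1 unnormalised integer count per gene symbol and library from HTSeq (base calls by bcl2fastq 2.0). A further table, with the authors' own edgeR comparisons of the IPs (fold changes, p-values and FDR), was not used. Counts were tested with edgeR 4.0.16 in R 4.3.3 (filterByExpr, TMM factors, quasi-likelihood F-tests on group means, two-sided). Calls used an FDR (Benjamini-Hochberg, across every gene of the fit) under 0.05. RIP contrasts shared a fit of 12 libraries, gradient contrasts used the 8 libraries compared (16 for the shift between fractions) and the TNRC6 contrast 4. Depth was 15353317 to 46018900 counts per library, and reads without molecular identifiers give counting error only. Same-numbered RIP libraries deviated together (r 0.18 to 0.78 over 18 pairs), as did input (0.20 to 0.36) and subpolysomal ones (0.59 to 0.74), so replicate numbers pair these samples, and blocked values stand beside results that they change. Polysomal numbers gave -0.56 to 0.10, but these deviations include replicate 3, which went against its labels, so they cannot decide whether polysomal numbers pair. No pair of libraries in a group agreed within sampling noise (chi-square at least 5.49 per gene). Fits were tested on simulated counts. GENCODE 44 on GRCh37 matched 33529 symbols. Named genes are the members, the siRNA targets, the 3 genes most like each member by Pearson r, and per comparison up to 4 called genes with the largest change among 28 listed partner, demethylase and methyltransferase genes. Some listed genes are also given in comparisons where their change was smaller. The members and lists were chosen with earlier results of these data known. Alternatives were DESeq2 1.42.0, RLE factors, library totals, no count filter, a replicate block, other sets of libraries and leaving out each library.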

Additional observations from a re-analysis of the deposited data

Results flagged for a closer look

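In each group of 4 libraries, the gap of the highest or lowest library of a member to its neighbour was set against the group's range (critical value 0.829). Of 42 groups tested 3 exceeded it, and chance alone flags about 1 in 20. KMT2B in control siRNA input replicate 4, at 43.5 CPM, lay below the other 3 libraries. KMT2A at 352 CPM and KMT2E at 101 CPM were highest in control polysomal replicate 3, the library in which CNOT1 went against its label.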

How the results depend on the processing

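Of 581 fold changes of single members under alternatives other than leaving out 1 library, 520 kept their direction and side of the threshold, 12 lost and 34 gained a call and 15 reversed, the causes being untested. With a replicate block, which uses the pairing, the number of members called was 5 instead of 2 in the eIF4A1 IP, 4 instead of 2 in the eIF4A2 IP, 2 instead of 1 between the eIF4A2 and eIF4A1 IPs, 1 instead of 0 between the DDX6 and eIF4A1 IPs and 2 instead of 0 in subpolysomal RNA after CNOT1 siRNA. The block gave 3 in the DDX6 IP, 1 between the eIF4A2 and DDX6 IPs, 6 in input RNA, 5 between fractions (SETD1A 0.53, FDR 0.0533) and 0 with TNRC6A/B siRNA, and -0.01 for KMT2D in subpolysomal RNA. It called 520 genes higher and 243 lower with TNRC6A/B siRNA, against 0 without it. Same-numbered libraries deviated together there (r 0.86), a single value, since with 2 libraries per group both pairs must give the same r. Leaving out both polysomal libraries of replicate 3 gave 3 members in polysomal RNA and 1 for the shift between fractions, and joined with the block, an alternative chosen after seeing the data, 6 and 1. Without the filter on low counts 4 members were called in the eIF4A1 IP and 2 between the eIF4A2 and eIF4A1 IPs, DESeq2 called 2 in the latter, and fits of only the compared libraries called 4 and 0. The fit of all 24 gradient libraries called 1 in input RNA. Values that changed sign were, with library totals, KMT2B 0.04 and SETD1A 0.11 (eIF4A2 against DDX6 IP), KMT2E 0.02 (subpolysomal RNA) and, for the shift between fractions, KMT2B -0.15, KMT2C -0.21, SETD1A -0.22 and SETD1B -0.13. Without the filter they were KMT2B -0.01 (eIF4A2 against eIF4A1 IP), KMT2C -0.03 and SETD1A -0.06 (shift). Without both polysomal libraries of replicate 3, KMT2D was 0.08 in polysomal RNA (0.09 with the block) and KMT2A 0.15 for the shift (0.23 with the block). With the same libraries left out, the shift kept its sign for KMT2B (0.60 in place of 0.12), SETD1A (0.30 in place of 0.05) and SETD1B (0.39 in place of 0.14). Leaving out each library in turn, 1 to 3 members were called in the eIF4A1 IP, 1 to 4 in the eIF4A2 IP, 1 to 2 in the DDX6 IP, 0 to 1 between the eIF4A2 and eIF4A1 IPs and 0 to 2 between the eIF4A2 and DDX6 IPs. Members whose sign changed when 1 library was left out ranged as follows. In the eIF4A2 IP KMT2C ran from -0.04 to 0.18 and SETD1A from -0.07 to 0.62, and in the DDX6 IP KMT2A from -0.52 to 0.09. Between the eIF4A2 and eIF4A1 IPs KMT2A ran from -0.07 to 0.44, KMT2B from -0.16 to 0.21, KMT2D from -0.05 to 0.53 and SETD1A from -0.38 to 0.32. Between the eIF4A2 and DDX6 IPs KMT2A ran from -0.47 to 0.14, KMT2B from -0.30 to 0.07 and SETD1A from -0.38 to 0.32, and between the DDX6 and eIF4A1 IPs KMT2B from -0.05 to 0.28 and KMT2D from -0.33 to 0.07. After CNOT1 siRNA in subpolysomal RNA KMT2A ran from -0.11 to 0.48, KMT2B from -0.09 to 0.56, KMT2D from -0.28 to 0.24 and SETD1A from -0.02 to 0.35. In polysomal RNA KMT2A ran from -0.17 to 0.50, KMT2C from -0.13 to 0.34, KMT2D from -0.15 to 0.14 and SETD1B from -0.03 to 0.28. For the shift KMT2A ran from -0.41 to 0.25, KMT2B from -0.20 to 0.43, KMT2C from -0.08 to 0.37, SETD1A from -0.12 to 0.20 and SETD1B from -0.07 to 0.31. With TNRC6A/B siRNA KMT2A ran from -0.08 to 0.27, KMT2D from -0.15 to 0.91, KMT2E from -0.23 to 0.07, SETD1A from -0.51 to 0.99 and SETD1B from -0.39 to 0.53, with lone libraries assumed to vary like the other group.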
